A study of Mus musculus with 8 samples.

Results

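The chromatin loops described here are the longest of mouse embryonic stem cells (ES cells): every loop of the ES cell list on chromosomes 1 to 19 whose anchor midpoints lie more than 3 Mb apart. The list holds 8205 loops on these chromosomes, and 314 of them, 3.83% (95% Wilson interval 3.43 to 4.26), passed the limit. The members were thus chosen by their measured size, so that size, and the contact counts behind the calls, are given as descriptions. The shortest loops kept spanned 3025, 3050 and 3100 kb, and the longest left out spanned 2990, 3000 and 3000 kb. The 628 anchors of the 314 loops fell on 400 distinct intervals, and anchors that overlapped were merged, which gave 355 sites.

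Hi-C counts the pairs of genomic fragments that were ligated after formaldehyde fixation, and a loop is a pair of small regions with more contacts than their surroundings. It was performed on v6.5 ES cells, a wild type male line of mixed 129/B6 background grown without feeder cells on gelatin with LIF at 24 ng/mL, and on lens epithelium and lens fiber cells cut from the lenses of newborn CD-1 mice at postnatal day 0.5. Each lens replicate pooled 30 lenses. CTCF ChIP-seq was done on lens epithelium and lens fiber cells from 200 lenses of the same strain and age, and no ES cell CTCF list was analysed here. Every list is 1 per cell type, with 2 Hi-C replicates merged, so there is no replicate error between cell types and no test of their differences. Intervals are 95% Wilson intervals for shares and exact Poisson intervals for contact counts, and both cover counting error only. For a share of 0, the limit given is 3 counts of the total. The ES cells are 1 line, and the lens samples are dissected tissue, so that line, strain, sex and tissue cannot be told apart in any difference between them.

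Most chromatin loops are formed by cohesin, which extrudes DNA until it meets CTCF, and they rarely exceed a few megabases. A different kind of contact has long been known in ES cells, where genes for developmental transcription factors are kept silent by the Polycomb complexes while remaining ready for use. Such Polycomb-bound promoters, which are rich in CpG, can gather in shared nuclear bodies over very large distances. The lens, which arises from surface ectoderm, depends on several developmental transcription factors, among them Pax6, Prox1, Foxe3, Gata3 and Sox1. Of those named, all but Sox1 overlapped a site described here, and lens factors were not counted as a list.

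No Polycomb binding, histone mark or expression of ES cells was analysed here. The sites with most partners held genes for developmental transcription factors. The following 7 promoters are shown because each starts within a site that was joined to 6 or more other sites, with 1 promoter for each such site that had an entry. They run from 250 bases before to 50 bases after the start of the gene, 5′ to 3′ on the strand of the gene, as RefSeq gives them for GRCm38.p6, and capitals mark each CG dinucleotide.
Lmx1b: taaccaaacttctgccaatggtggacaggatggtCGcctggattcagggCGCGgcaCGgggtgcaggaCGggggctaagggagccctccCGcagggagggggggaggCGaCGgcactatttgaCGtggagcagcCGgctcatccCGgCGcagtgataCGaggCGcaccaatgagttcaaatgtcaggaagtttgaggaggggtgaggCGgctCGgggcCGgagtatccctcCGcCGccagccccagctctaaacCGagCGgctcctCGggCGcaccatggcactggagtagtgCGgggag
Uncx: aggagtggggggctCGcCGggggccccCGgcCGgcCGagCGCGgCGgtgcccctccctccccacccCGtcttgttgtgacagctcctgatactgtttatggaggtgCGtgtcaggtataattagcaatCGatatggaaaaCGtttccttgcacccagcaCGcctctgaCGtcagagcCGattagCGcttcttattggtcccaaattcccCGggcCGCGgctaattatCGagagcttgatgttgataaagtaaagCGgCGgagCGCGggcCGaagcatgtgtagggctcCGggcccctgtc
Barx1: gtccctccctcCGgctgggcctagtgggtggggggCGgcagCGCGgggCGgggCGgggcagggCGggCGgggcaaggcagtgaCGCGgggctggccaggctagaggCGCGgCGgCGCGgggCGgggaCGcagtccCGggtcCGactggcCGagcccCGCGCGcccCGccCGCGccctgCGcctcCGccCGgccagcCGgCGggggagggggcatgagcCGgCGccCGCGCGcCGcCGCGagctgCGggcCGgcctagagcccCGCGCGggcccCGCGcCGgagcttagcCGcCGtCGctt
Hoxd11: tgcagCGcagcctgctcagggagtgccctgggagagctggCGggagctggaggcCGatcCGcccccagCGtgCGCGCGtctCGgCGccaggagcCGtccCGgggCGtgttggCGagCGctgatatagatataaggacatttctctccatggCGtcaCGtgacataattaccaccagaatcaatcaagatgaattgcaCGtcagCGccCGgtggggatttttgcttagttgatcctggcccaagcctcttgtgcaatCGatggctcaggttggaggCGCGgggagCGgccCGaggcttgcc
Dlx2: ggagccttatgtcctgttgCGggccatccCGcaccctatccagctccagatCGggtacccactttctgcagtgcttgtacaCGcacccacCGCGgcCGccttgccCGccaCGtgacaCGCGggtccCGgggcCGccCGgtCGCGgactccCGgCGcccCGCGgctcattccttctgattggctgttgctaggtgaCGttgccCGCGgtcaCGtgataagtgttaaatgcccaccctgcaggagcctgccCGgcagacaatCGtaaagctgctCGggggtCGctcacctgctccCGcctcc
Barhl2: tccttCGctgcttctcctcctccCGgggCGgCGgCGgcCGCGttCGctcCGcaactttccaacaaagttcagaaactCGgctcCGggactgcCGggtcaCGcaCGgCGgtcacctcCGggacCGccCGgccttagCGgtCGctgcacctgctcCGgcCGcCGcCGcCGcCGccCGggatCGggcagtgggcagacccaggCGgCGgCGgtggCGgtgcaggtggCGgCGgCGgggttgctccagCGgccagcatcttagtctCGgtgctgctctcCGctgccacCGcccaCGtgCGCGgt
Lhx4: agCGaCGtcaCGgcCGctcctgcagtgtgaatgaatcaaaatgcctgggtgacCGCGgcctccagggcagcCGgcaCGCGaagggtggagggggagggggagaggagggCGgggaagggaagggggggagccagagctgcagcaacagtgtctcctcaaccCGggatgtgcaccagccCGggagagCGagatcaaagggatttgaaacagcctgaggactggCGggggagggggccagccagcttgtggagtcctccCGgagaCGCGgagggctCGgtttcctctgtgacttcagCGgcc
The promoters lie at the following places and hold the following numbers of CG dinucleotides in 300 bases: that of Lmx1b at chr2:33641049-33641348 (− strand) with 24, that of Uncx at chr5:139543648-139543947 (+ strand) with 26, that of Barx1 at chr13:48662786-48663085 (+ strand) with 50, that of Hoxd11 at chr2:74682073-74682372 (+ strand) with 25, that of Dlx2 at chr2:71546705-71547004 (− strand) with 29, that of Barhl2 at chr5:106458117-106458416 (− strand) with 42 and that of Lhx4 at chr1:155741978-155742277 (− strand) with 19.

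Across the 81 promoters of listed developmental genes that started within a site, 75.3% had an observed to expected CpG ratio above 0.6, a common mark of a CpG island. The share was 57.5% of 193 promoters of listed developmental genes elsewhere, 59.2% of 2260 promoters at anchors of ES cell loops up to 3 Mb and 48.9% of all 20085 protein-coding promoters. The other 134 promoters within sites were at 64.9%. The median CpG ratio was 0.744 within sites and 0.586 over all promoters.

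The loops were spread over a wide range of sizes. The median was 13188 kb, with quartiles of 5556 and 23919 kb, and 176 loops were above 10 Mb, 103 above 20 Mb and 13 above 50 Mb. Anchors of 25 kb accounted for 254 of the 314 loops, against 1686 of the 7891 ES cell loops up to 3 Mb. The 254 loops rested on few contacts: a median of 19 observed, with 13 as the lowest and 79 as the highest, at a median of 10.1 times the count expected from the surrounding donut of pixels. Among the 314 loops, 181 had 20 contacts or fewer. ES cell loops up to 3 Mb with 25 kb anchors had a median of 116 contacts and a ratio of 2.35.

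The 18 loops with 5 kb anchors had the highest median ratio. Their median ratio was 405 over the 16 for which an expected count above 0 was listed, and 10 of the 18 (55.6%) were also listed in at least one lens cell type. That share was near the 56.5% of the 3292 ES cell loops up to 3 Mb with 5 kb anchors. The loop with most contacts joined a predicted gene, Gm18604, to Rn18s-rs5 and AY036118 on chromosome 17, with 909 contacts over 3615 kb. Rn18s-rs5 is named for 18S ribosomal RNA, a sequence present in many near-identical copies, and this loop was in both lens lists. The longest 2 loops, of 176540 and 159180 kb, both ended at Gm40034 on chromosome 2, with 14 and 27 contacts. A loop of 96420 kb on chromosome 13 joined a pair of sites without a gene and held 83 contacts, and it was in both lens lists. The 32 sites of these loops rarely held genes: 20 overlapped no protein-coding gene body and 1 held a listed developmental gene. Reads of near-identical copies can be split or misplaced between them. Copy number at these sites was not measured, so its part in these values was not tested and they remain uncertain. The authors had filtered the reads of these maps by alignment quality.

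**Figure D1:**
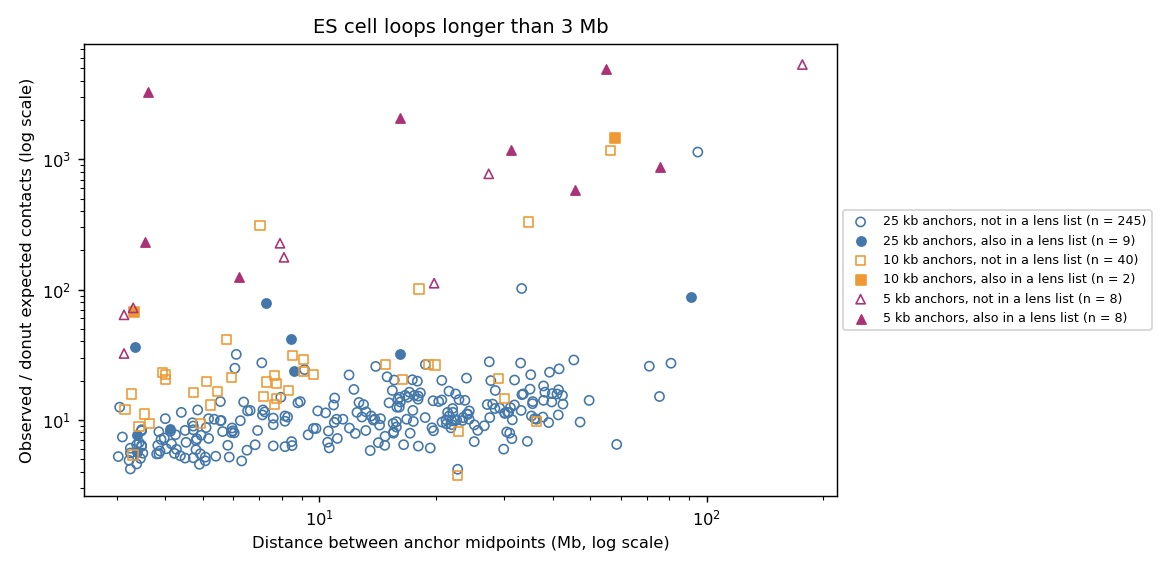
Each point is 1 ES cell loop longer than 3 Mb, with its size in Mb on the x axis and its ratio of observed to donut expected contacts on the y axis, both on log scales. Marker shape and colour give the anchor width, and filled markers are loops also listed in lens epithelium or lens fiber. The 25 kb loops lie around their median of 10.1 with 9 of 254 filled and range from 4.17 to 1139, and the 5 kb loops range from 32.3 to 5355 around a median of 405.

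The 355 sites and 314 loops formed a network. A group is a set of sites connected through loops, which can exist only within a chromosome. There were 98 groups: 68 were single pairs, 30 held 3 or more sites, and the largest 6 held 103 sites and 140 loops. While 223 sites had 1 partner, 70 had 3 or more and 15 had at least 5. These 15 sites carried an end of 26.1% of all long loops, and of 10.4% when loops above 20 Mb were left out. The network was closed in part. Of 543 cases in which a site was joined to a pair of others, that pair was itself joined in 129 (23.8%), giving 43 triangles, and no set of 4 sites was fully joined.

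The site with most partners, 9, was Lmx1b on chromosome 2, at chr2:33625001-33650000. It encodes a LIM homeobox factor of dorsal limb, kidney and midbrain development. Its loop to Dlx1 and Dlx2, homeobox genes of forebrain interneurons, held 58 contacts (44 to 75) over 37900 kb, at 14.1 times the expected count. The loop to Hoxd9 to Hoxd12, of the cluster that patterns the limb and posterior axis, held 45 contacts (32.8 to 60.2) over 41050 kb. Its loops to Bmi1, which encodes a subunit of Polycomb repressive complex 1, and to Skida1 held 42 and 31 contacts over 14950 and 15600 kb. Gata3, 23750 kb away, was joined by 16 contacts. The loops of Lmx1b thus ran in both directions along the chromosome, and the Dlx and Hoxd sites were themselves joined by 28 contacts over 3150 kb.

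The group around Lmx1b was the largest, with 24 sites, 37 loops and 10 triangles over 150500 kb of chromosome 2. Among its genes were Gata3, Sfmbt2, Skida1, Bmi1, Lhx2, Tbr1, Alx4, Wt1, Pax6, Meis2, Nkx2-2 and Pax1. Sfmbt2 encodes a Polycomb-associated protein. Pax6, the master regulator of eye and lens formation, was joined to the Hoxd site by 27 contacts over 31000 kb and to Meis2, a homeobox factor that acts on Pax6 in the lens, by 21 contacts over 10375 kb. Hoxd, Pax6 and Meis2 formed a triangle, as did Hoxd, Wt1 and Meis2. The study itself reports the contact of Pax6 with Meis2 in ES cells.

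The second site by number of partners, with 8, was Uncx on chromosome 5, a homeobox gene of the somites. It was joined to Lhx5 (28 contacts over 19110 kb), Tbx3 (16 over 19880 kb), Tbx5 (23 over 19700 kb), Barhl2 (19 over 33075 kb) and, on the other side, to Gsx1, Pdx1 and Cdx2, which form the ParaHox cluster, by 15, 18 and 21 contacts at 7650, 7730 and 7760 kb. The chromosome 5 group held 20 sites and 29 loops, with En2, Shh, Mnx1, Hmx1, Msx1, Nkx3-2, Nkx6-1 and Tnrc18 among them. Shh, the hedgehog ligand of limb and neural tube, was joined to Hmx1 by 15 contacts over 6925 kb and to Msx1 by 14 over 9350 kb. Most of these loops lay within one or the other end of the chromosome, and a single loop from Hmx1 to Barhl2 joined the ends.

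Barx1, a homeobox gene of teeth and stomach, had 7 partners on chromosome 13. They were Foxd1 (16 contacts over 49700 kb), Irx2 (22 over 23975 kb), Nrn1, Tfap2a, Neurog1, Pitx1 and Msx2. The chromosome 13 group held 17 sites and 24 loops, and 7.08% of the ES cell loops on chromosome 13 were longer than 3 Mb, the highest share of the 19 chromosomes. The lowest was 0.803% on chromosome 16, where a loop of 75500 kb with 14 contacts joined Tbx1 to Sim2. Foxb1 and the neighbours Zic1 and Zic4 led the group on chromosome 9, with 6 and 5 partners among 11 sites. Lhx4 on chromosome 1 had 6 as well, and one of its loops reached Fev and Cryba2 over 80850 kb with 15 contacts.

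The Hox clusters were members on each of their 4 chromosomes. Hoxa9 to Hoxa11 were joined to Vax2, a homeobox gene of the ventral eye, by 79 contacts over 31475 kb and to Dlx6 by 15 over 45375 kb. Hoxb6 to Hoxb9 and Hoxb13 were joined to Cbx2 and Cbx8, subunits of Polycomb repressive complex 1, by 74 and 19 contacts over 22750 and 22850 kb. At 4.17 times the expected count, the former had the lowest ratio of the 254 loops with 25 kb anchors. Hoxc4 to Hoxc6 were joined to Wnt1 and Wnt10b by 41 contacts over 4225 kb. All of these loops were absent from both lens lists.

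**Figure D2:**
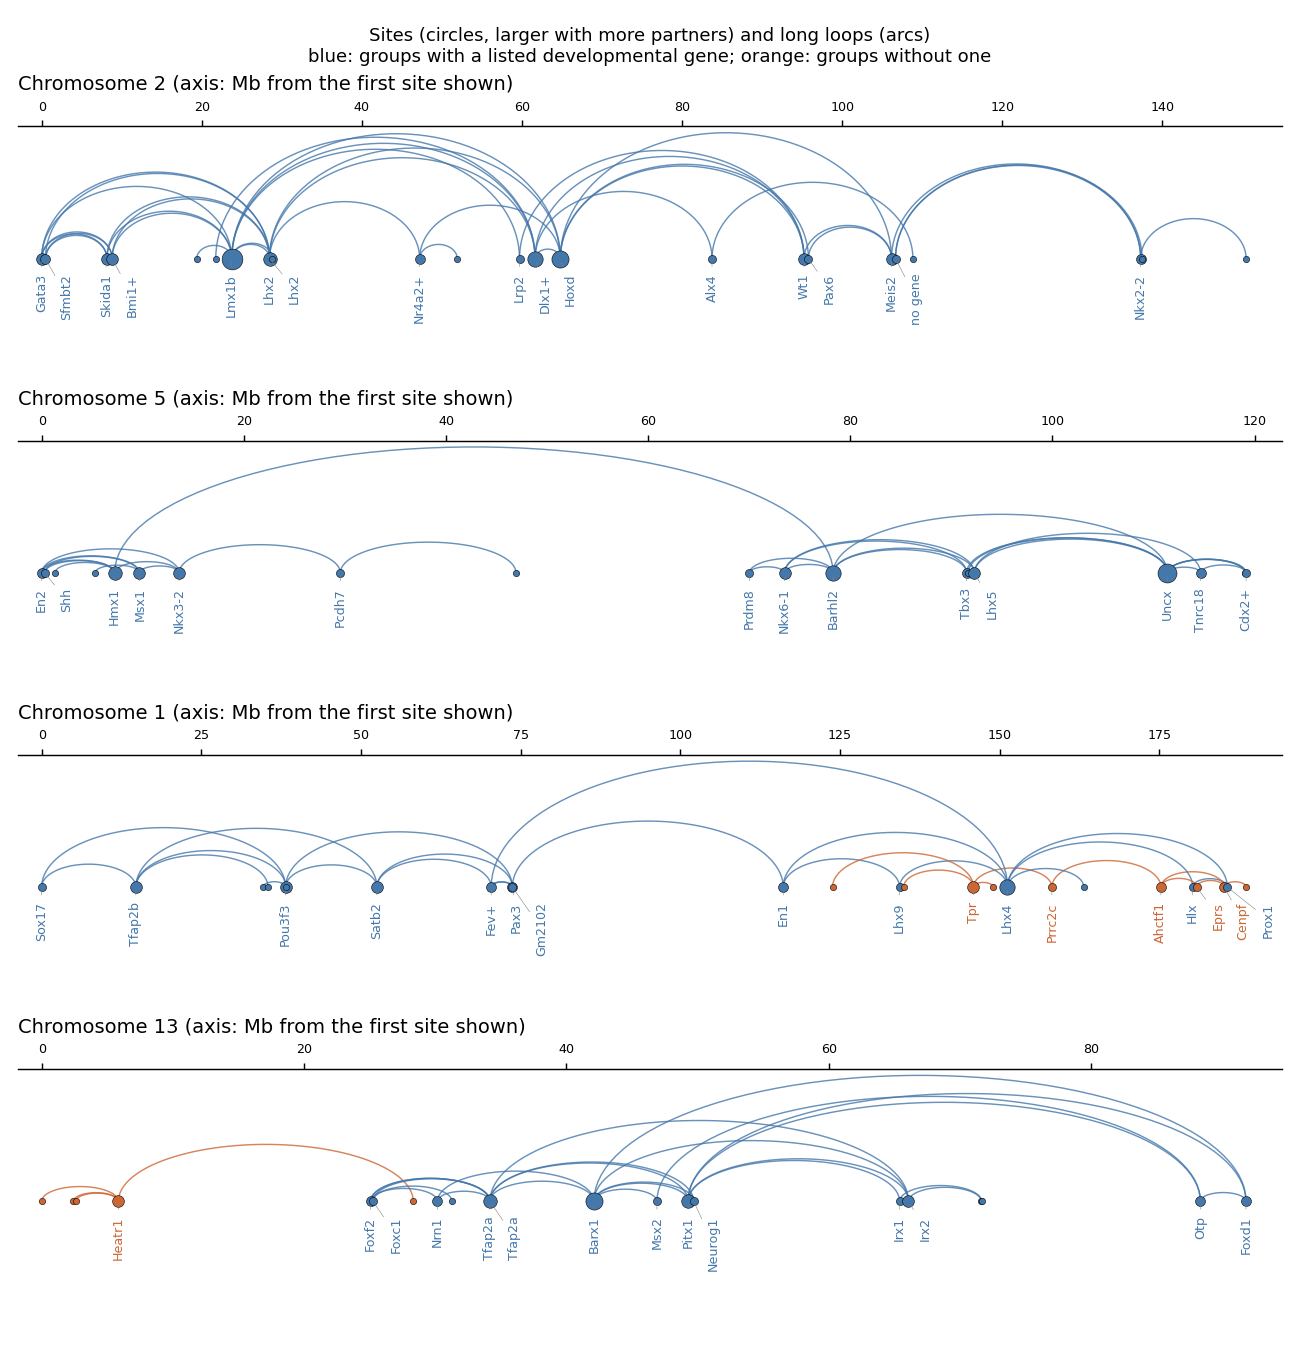
Long loops on chromosomes 2, 5, 1 and 13. The x axis gives the distance in Mb from the first site shown, circles are sites (larger with more partners), those with 2 or more partners labelled by gene, with + for further genes, and arcs are loops. The Lmx1b and Hoxd sites on chromosome 2, Uncx on chromosome 5 and Barx1 on chromosome 13 have 9, 7, 8 and 7 partners. On chromosome 1 the groups drawn in blue and in orange overlap along the chromosome. No loop joins different groups, by the definition of a group.

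Of 337 genes in 21 lists of developmental regulators, 113 (33.5%, 28.7 to 38.7) overlapped a site, against 1.71% of all 20665 protein-coding genes. Counted by gene starts within a site, 106 of the 337 were found, against 1.14% of all genes. The lists differed widely. Gata factors were at 4 of 5, LIM homeobox genes at 8 of 12, other homeobox genes at 24 of 41, Pax genes at 5 of 9 (Pax1, Pax3, Pax6, Pax7 and Pax9), Nr2f receptors at 2 of 3, Dlx and Msx genes at 5 of 9, T-box genes at 8 of 16, Nkx genes at 7 of 14 and Hox genes at 16 of 39. Forkhead genes were at 10 of 41, Wnt ligands at 5 of 19, bHLH factors at 5 of 35 and Sox factors at 3 of 18. Zic and Gli genes were at 3 of 7, Tfap2 genes at 2 of 5, hedgehog ligands at 1 of 3, Irx genes at 2 of 6 and the Meis, Pbx and Pknox list at 1 of 9 (Meis2). Growth factor lists were the lowest of those given, with 1 of 20 Fgf genes (Fgf9) and 1 of 20 Bmp and Gdf genes (Gdf6). Each share was 5.00%, with an interval (0.888 to 23.6) that includes the 1.71% of all genes. The remaining list is not reported here. Neighbouring genes of a cluster share sites, so the genes of a list are not independent. The lists were also chosen with earlier results of these data known, so their shares are descriptions.

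Lists of other function held smaller shares than the developmental lists together, though those with a member lay above the 1.71% of all protein-coding genes. Of 31 Polycomb subunit genes 3 (9.68%) were at a site (Bmi1, Cbx2 and Cbx8). So were 1 of 16 genes for CTCF and cohesin (6.25%, Smc3), 1 of 20 pluripotency genes (5.00%, Tbx3) and 1 of 16 crystallin genes (6.25%, Cryba2, beside Fev). Proteasome genes were at 1 of 38 (2.63%, Psmd14). Among these lists, only the Polycomb interval (3.35 to 24.9) lay above 1.71%. None of 77 ribosomal protein genes, 1100 olfactory receptor genes and 57 clustered protocadherin genes was at a site. At 1.71%, lists of 77 and 57 genes would hold few members or none. Of 9 genes chosen from those the study names, Pax6, Meis2, Wt1, Tbx1, Wnt5a and Shh overlapped a site, while Lhx1, Pax2 and Sox1 did not. Further genes that the study names for looping, among them Runx2 in ES cells, were not counted. The 9 genes therefore give no share of all those it names. The study names Pax6, Meis2, Wt1, Tbx1, Lhx1, Wnt5a and Shh for looping in this same ES cell map. Their overlap with a site is therefore not an independent result. Foxe3, of the forkhead list, and Prox1, which was added after its values were seen, also overlapped a site.

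**Figure D3:**
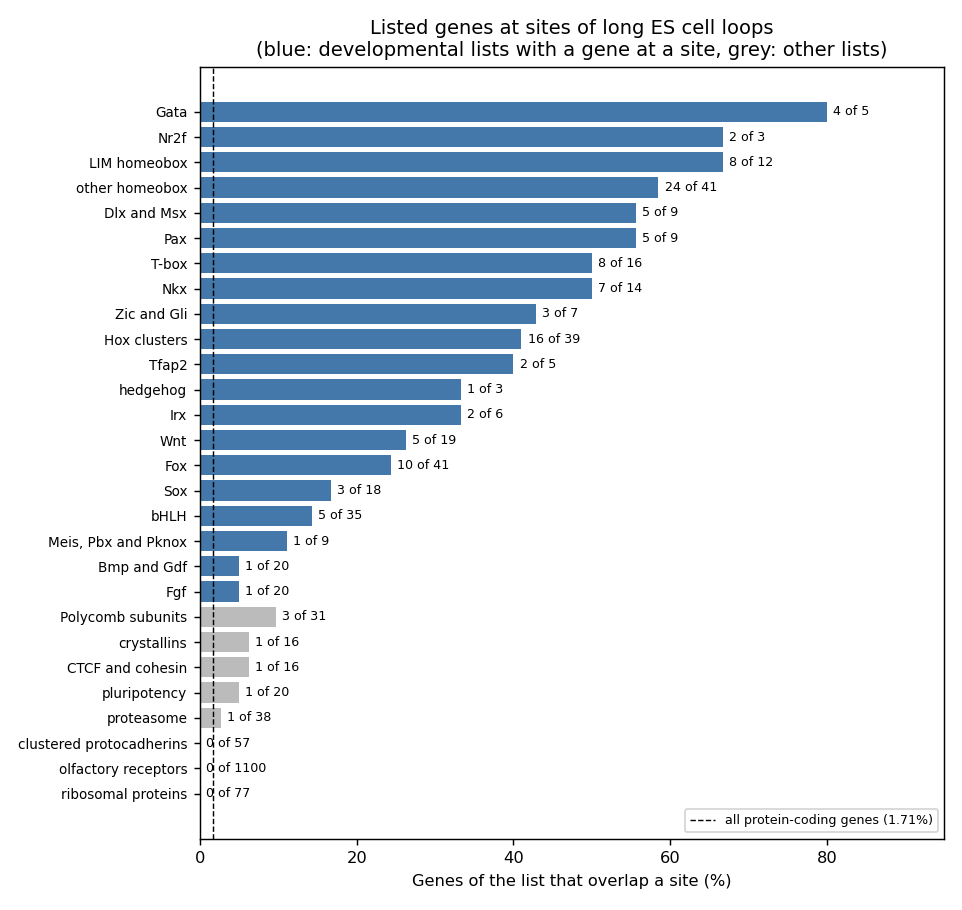
Bars give the percent of the genes of each list whose body overlaps a site of a long ES cell loop, with the counts beside them. Blue bars are developmental lists with a gene at a site, grey bars are other lists, and the dashed line is the 1.71% of all protein-coding genes. Gata, Nr2f and LIM homeobox genes are highest, and 0 of 1100 olfactory receptor genes is lowest by list size.

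Listed genes were more common at sites with more partners. They stood at 18.4% of 223 sites with 1 partner, at 41.9% of 62 sites with 2 and at 55.7% of 70 sites with 3 or more. Of the 15 sites with at least 5 partners, 12 held one, and the other 3 held Barx1, Uncx and Hmx1, homeobox genes outside the lists. Counted over distinct 25 kb anchors, 33.0% of 297 held a listed gene, against 2.66% of the 3041 anchors of the same width of ES cell loops up to 3 Mb and 0.804% of all 25 kb windows. A listed gene stood at both anchors of 66 of the 254 long loops of 25 kb (26%) and of 6 of the 1686 loops of that width up to 3 Mb (0.356%).

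Pairs of sites that both held a listed gene were often joined even at large distance. Among the pairs 10 to 20 Mb apart, 25 of 52 (48.1%) were joined, and among those 20 to 40 Mb apart 26 of 99 (26.3%). Pairs of sites without a listed gene were joined in 10.3% and 6.00% of cases at these distances. Both shares were higher at 3 to 5 Mb, at 76.9% and 42.1%, and beyond 40 Mb they fell to 2.37% and 1.37%. Each site has at least 1 loop by construction, and pairs that share a site are not independent.

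**Figure D4:**
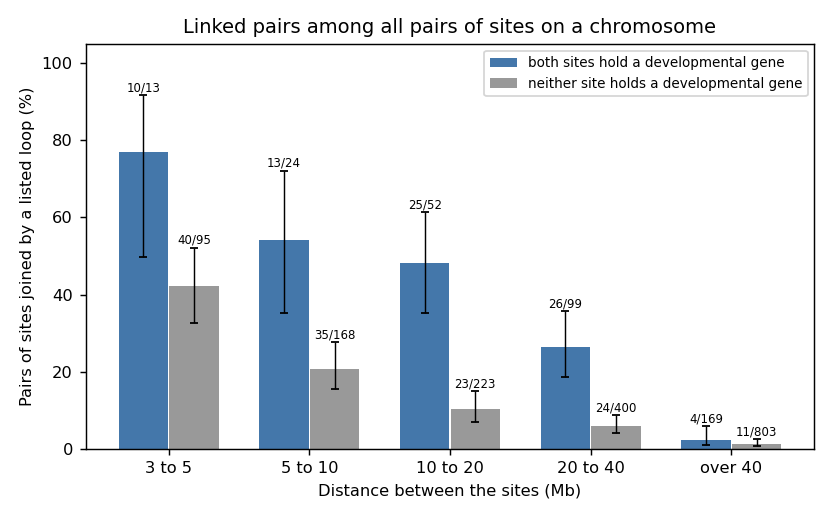
Bars give the percent of pairs of sites on the same chromosome that are joined by a listed loop, by their distance in Mb, with 95% Wilson intervals and the counts above them. Blue bars, for pairs in which both sites hold a listed developmental gene, lie above grey bars, for pairs in which neither does, and the 2 intervals overlap at 3 to 5 Mb and beyond 40 Mb.

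Not every group contained such genes. Among the groups of 3 or more sites, 20 contained a listed developmental gene (176 sites, 211 loops, 41 triangles) and 8 contained none (37 sites, 30 loops, 1 triangle), beside the 2 groups formed by 5 kb anchors. This division was made after the groups had been seen. The second kind was found on chromosomes 1, 3, 6, 11, 13, 14 and 19. On chromosome 1 it held Mcm6 beside Lct, Aspm beside Zbtb41, Tpr, Dhx9 beside Shcbp1l, Prrc2c, Ahctf1, Eprs, Cenpf and Utp25. Tpr and Ahctf1 encode parts of the nuclear pore, Aspm and Cenpf proteins of the mitotic spindle and kinetochore, Dhx9 an RNA helicase and Eprs an aminoacyl-tRNA synthetase. Tpr had 4 partners there, the strongest being Prrc2c with 28 contacts (18.6 to 40.5) over 12275 kb, and Ahctf1, Eprs and Cenpf formed the triangle.

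Hmmr on chromosome 11, which encodes a spindle protein, had 4 partners (Ttc1, Fbll1 beside Pank3, Ppp4r3b beside Cfap36, and Gemin5) at 3025 to 17425 kb with 36, 32, 16 and 13 contacts. Heatr1 on chromosome 13, needed to make ribosomal RNA, had 4 as well (Gtpbp4, Larp4b, Pitrm1 and Prpf4b), with 38, 29, 26 and 13 contacts. Among the genes at sites on chromosome 3 were Ect2, Spata5, Plk4 beside Mfsd8, Naa15, Supt20, Eif2a beside Serp1, Ubap2l and Prpf3. The sites on chromosome 6 held Tmem209, Nup205 and Luc7l2, those on chromosome 14 Dis3 beside Pibf1, Rbm26 and Ipo5, and those on chromosome 19 Kif20b, Noc3l and Hells. No list of genes had been drawn up for these sites, so no shared function was counted. Of the 12 promoters within them, 10 had a CpG ratio above 0.6 (83.3%), and of the 158 within sites of the developmental groups 104 (65.8%).

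The sites of the groups without listed genes lay mostly inside gene bodies, and most of those of the developmental groups held a gene start. The 37 sites all overlapped a protein-coding gene body, which covered a median of 100% of the site, and the longest gene there had a median length of 43.6 kb (quartiles 31.9 and 58.6). A gene start was within 10 of them (27.0%, 15.4 to 43.0). Of the 176 sites in developmental groups, 150 (85.2%, 79.2 to 89.7) held a gene start, gene bodies covered a median of 38.6% of the site, and the longest gene had a median length of 18.0 kb. The start of a listed gene lay in 88 of the 176. The groups were sorted by listed genes, so part of the 85.2% follows from the sorting. For 25 kb anchors of ES cell loops up to 3 Mb the gene starts were at 30.7% and the median cover at 38.4%. Loops of the groups without listed genes had a median size of 5712 kb and those of the developmental groups 15525 kb.

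On chromosome 1 both kinds of site ran through the same stretch. The Lhx4 site lay between Tpr and Prrc2c, and 8 of the 9 sites without listed genes fell within the span of the developmental group. Over all chromosomes with both kinds, 58 pairs made of 1 site of each kind were 3 to 20 Mb apart. None of them was joined, which follows from the way the groups were drawn. At that distance 133 of 273 pairs within the developmental groups (48.7%) and 27 of 45 within the others were joined. These shares depend on the same drawing, because every site of a group has a loop within it, so they are no contrast to the pairs across kinds.

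Each lens list held only 82 loops longer than 3 Mb, against 314 in ES cells, which limits how many long loops could match. Up to 3 Mb, lens epithelium listed 7758 loops and lens fiber 7420. None of the 211 loops of developmental groups was found in either lens list, which allows a share of up to 1.42%. To be counted as found, a loop had to match a lens loop with both of its midpoints, to within 10 kb, and the count was also 0 within 25 kb or for any overlap of both anchors. No lens loop longer than 3 Mb had an anchor at any of the 176 sites. None of the 30 loops of the other 8 groups was found either, which allows up to 10%, and 1 lens fiber loop longer than 3 Mb had an anchor at one of their sites (Ect2). Lens epithelium contained 17 long ES cell loops and lens fiber 17, and these came from elsewhere: 18 of the loops found in at least one lens list were single pairs and 3 came from the groups with 5 kb anchors. By width, 9 of 254 loops of 25 kb were found (3.54%, 1.88 to 6.60), against 32.4% of those up to 3 Mb. All 9 were among the 101 without a listed gene at either end, and 0 of the 67 whose merged sites held one at both ends were found, which allows up to 4.48%. The part of map depth in this difference was not tested.

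The same sites were, however, often anchors of short loops in the lens. Of the 355 sites, 120 held an anchor of a lens epithelium loop up to 3 Mb, 124 of a lens fiber loop, 148 (41.7%) of at least one and 96 of both. In the developmental groups the shares were 51.7% (44.4 to 59.0) in lens epithelium and 54.0% (46.6 to 61.2) in lens fiber, and in the groups without listed genes 8.11% (2.80 to 21.3) and 5.41% (1.5 to 17.7). Windows of 25 kb in the genome held such anchors in 12.7% and 12.2% of cases. Windows with the start of a listed developmental gene away from the sites held them in 36.2% (30.7 to 42.1) and 36.6% (31.0 to 42.5), and those at a site in 57.6% (47.7 to 66.8) and 61.6% (51.8 to 70.6). The intervals of the latter 2 sets of windows did not overlap in either cell type. Anchors of ES cell loops up to 3 Mb moved with this difference, at 53.7% (47.8 to 59.6) of the windows away from the sites and 90.9% (83.6 to 95.1) of those at a site, and their part in it was not tested. Over 25 kb anchors the shares were 36.4% and 38.4%, below the 58.4% and 58.0% of ES cell loops up to 3 Mb.

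Among lens loops up to 3 Mb, those at these sites were longer than usual. The 194 lens epithelium loops there had a median size of 380 kb and the 197 lens fiber loops 375 kb, against 250 and 260 kb over all lens loops up to 3 Mb. Of the 355 sites 289 were 25 kb wide, and the lens loops were not matched by anchor width. The part of width in this difference was not tested. At the 15 sites with at least 5 partners, 11 had a lens epithelium anchor and 12 a lens fiber anchor, and the 41 loops ran from 70.0 to 1800 kb. Uncx had 1 loop of 130 kb in each lens cell type, where ES cells listed loops of up to 33075 kb. In lens epithelium and lens fiber, respectively, the Hoxd site had loops of 1100 and 1110 kb, Zic1 and Zic4 of 670 and 675 kb, and Tfap2a of 1290 and 1300 kb. Lmx1b had 1 loop, of 150 kb, in lens fiber and none in lens epithelium. Foxb1, Vax2 and Lhx4 had no lens loop. All 15 sites were also anchors of ES cell loops up to 3 Mb, as were 156 of the 176 sites in developmental groups and 21 of the 37 in the others.

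CTCF peaks of the lens were found at fewer of the sites than at anchors of shorter loops. A lens fiber peak lay in 139 of the 355 sites (39.2%) and a lens epithelium peak in 83 (23.4%), with 73 holding both and 206 neither. Over 25 kb anchors the shares were 41.4% (36 to 47.1) and 23.6% (19.1 to 28.7), and all 25 kb windows were at 19.8% and 14.3%. For ES cell loops up to 3 Mb, a fiber peak lay in 59.2% (57.4 to 60.9) of the 25 kb anchors and an epithelium peak in 1216 of 3041, with an interval of 38.3% to 41.7%. Fiber peaks lay at both anchors of 20.1% of the 254 long loops of 25 kb and of 38.1% of the 1686 shorter ones. At windows with a listed gene start, the fiber share was 50.5% (40.8 to 60.1) at a site and 45.5% (39.7 to 51.5) elsewhere, and these intervals overlapped. In groups without listed genes it was 16.2% (7.65 to 31.1), near that of all windows. It was 48.9% (41.6 to 56.2) in developmental groups and 31.6% (24.4 to 39.8) in single pairs. Of all 355 sites, 150 held neither a lens peak nor a lens loop anchor. Among them were 27 of the 37 sites in groups without listed genes, 47 of 176 in developmental groups and 74 of 136 in pairs. Where a fiber peak was present, its fold enrichment had a median of 6.68 at 25 kb anchors of long loops and 7.47 at those of loops up to 3 Mb. These peaks are from lens, and CTCF binding at the sites in ES cells was not measured here.

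**Figure D5:**
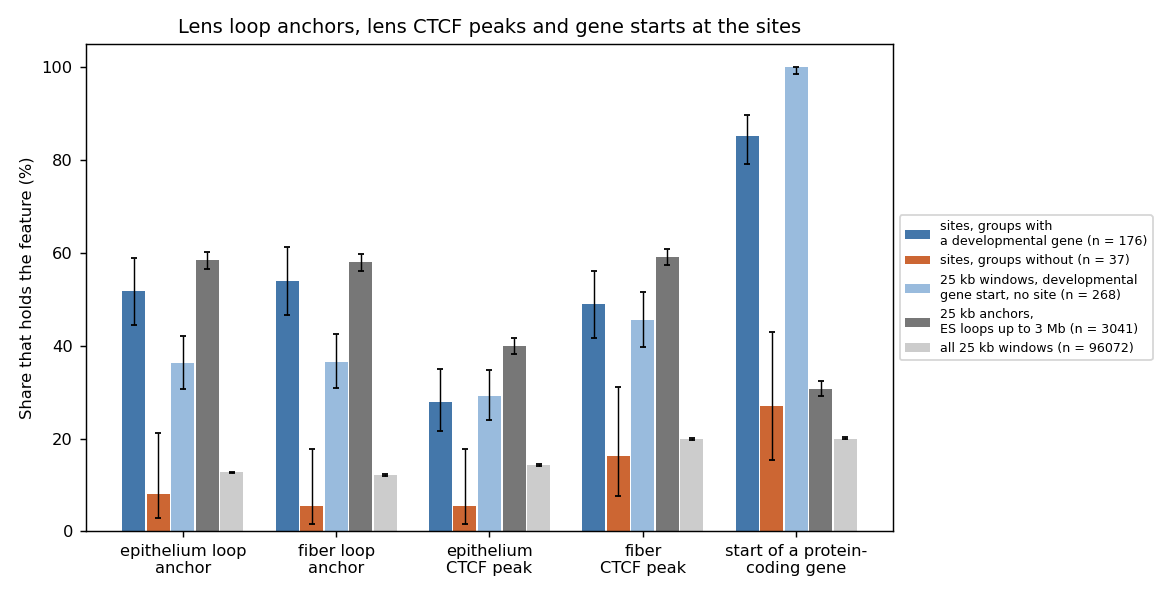
Bars give the percent of sites, anchors or windows that hold each feature, with 95% Wilson intervals. Dark blue bars are the 176 sites of groups with a listed developmental gene, orange bars the 37 sites of groups without one, light blue bars 25 kb windows with a listed gene start away from the sites, dark grey bars anchors of ES cell loops up to 3 Mb and light grey bars all windows. Lens loop anchors are at 51.7% and 54.0% in dark blue and at 8.11% and 5.41% in orange, and gene starts are at 85.2% and 27.0%.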

How the data were processed

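Loop and domain lists of 3 cell types and CTCF peak lists of the lens were used. Hi-C reads had been aligned with bwa-mem and merged over 2 replicates by the authors, who called loops with HiCCUPS (juicer_tools 2.13.06, per the file headers) on mm10. The observed count, as deposited, is raw, the expected counts come from 4 local backgrounds, and each FDR is a q-value. In the deposited MACS2 peak lists, the fold is an enrichment over background, and a score, the −log10 p-value and the −log10 q-value stand beside it.

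Sites, networks and shares were computed with Python 3.11.15, pandas 2.3.3 and networkx 3.6.1 after a check on simulated loops. Anchors were merged when they shared a base. Genes came from RefSeq on GRCm38.p6, and a gene without a promoter entry had either end counted as its start. Windows of 25 kb ran from the first to the last listed feature of a chromosome. The members and the gene lists were chosen with earlier results of these data known. Named genes are those of the lists at a site, those at sites with 5 or more partners, those of the longest loops and of the loops with the highest ratio, and 9 chosen from those the study names, and the groups without listed genes were named after their values were seen. Chromosome X was left out by the rule, and some genes are not reported here. Alternatives covered the size limit, merging, FDR, overlaps and peak strength.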

Additional observations from a re-analysis of the deposited data

How the results depend on the processing

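Of 46 alternative values, 37 stayed within the range of the value reported, that is the 95% interval of a share or a factor of 1.5 for a count, and 9 moved. Keeping only loops collapsed from 2 or more pixels left 104 of the 314 loops. The share of loops at sites with at least 5 partners, 26.1%, became 33.8% when anchors within 25 kb were merged and 10.4% when loops above 20 Mb were left out. The share of closed cases, 23.8%, became 34% when anchors within 100 kb were merged. Sites with a lens anchor came to 61.1% in lens epithelium and 60.8% in lens fiber when anchors within 25 kb counted, and the lens epithelium share was 28.2% with lens loops below an FDR of 0.01. Limited to the stronger 50% of peaks, sites with a peak were 12.4% in lens epithelium and 22.3% in lens fiber. Leaving out the sites of 5 kb loops, an alternative chosen after seeing the data, moved none of the shares beyond their intervals. No paired analysis was possible because each list merges both replicates. Few contacts per loop limit which long loops could be called in each map. The anchors are 5 to 25 kb wide, so the gene at a site cannot be told from its neighbours within that width.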
